A study of Mus musculus with 24 samples.

Results

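Hepatic transcripts of glucose production and insulin signaling were followed in isolated hepatocytes of young and old mice on a normal diet (ND) or a high-fat diet (HFD). The 9 genes were taken by symbol from the 55421 genes counted: Pck1, G6pc, Fbp1, Pklr, Irs1, Irs2, Insr, Foxo1 and Ppargc1a. Each was found once, and all 9 had enough counts to be tested. RNA of 24 male mice, with no genetic change named in the labels, was sequenced, 6 mice in each of 4 groups, after 9 weeks on diet. Young mice were labelled C57BL/6N, 6 months old, and old mice C57BL/6J, 24 months old, so that age and substrain cannot be told apart. The ND mice received Teklad global chow and the HFD mice TestDiet 58y1, in which fat supplied 60% of energy. The paper differs from the labels on age and on the ND and names no substrain, and the labels were followed here. Hepatocytes came from a 2-step collagenase perfusion and a Percoll gradient, and the labels put the mice in 2 batches without saying of what.

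In the liver, glucose is made from lactate, glycerol and amino acids by gluconeogenesis. The pathway bypasses the irreversible steps of glycolysis with its own enzymes, among them PEPCK, fructose bisphosphatase and glucose-6-phosphatase, whereas pyruvate kinase runs the last step of glycolysis. Insulin binds its receptor, which phosphorylates the adaptors IRS1 and IRS2 and, through PI3K and AKT, keeps the transcription factor FOXO1 out of the nucleus. FOXO1 and the coactivator PGC-1α, together with glucagon and cAMP signaling, raise transcription of the gluconeogenic enzymes in the fasted liver. The labels give both diets as ad libitum and name no fast before collection, and several of these genes also follow the time of day.

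Total counts ranged from 9200332 to 22185069 per mouse, and the old HFD libraries were the smallest. CPM are counts normalised to the library size after TMM scaling. Pairs of mice in a group all differed by more than sampling noise (the lowest chi-square divided by its degrees of freedom was 14.4). The 10 hepatocyte markers, such as Alb and Apob, summed to between 49502 and 166444 CPM in the mice. The libraries of old HFD replicate 2 and old ND replicate 4 stood apart. In old HFD replicate 2, genes with at least 8 kb of exon were lower relative to genes under 2 kb by -1.10 on the log2 scale, whereas the other 23 mice lay between -0.21 and 0.35. Old HFD was lower as a group, with a median of -0.16 against 0.12 for young ND, and 5 of its 6 mice lay under every young ND mouse. In old ND replicate 4 mitochondrial transcripts took 30.6% of counts, against a range of 4.26% to 21.8% in the other mice. Values without these 2 libraries are given below where a call described here was lost or where 1 of the 9 genes gained one. The median SD of log2 CPM over all genes tested was 0.24 among young ND mice, 0.29 for young HFD, 0.34 for old ND and 0.54 for old HFD.

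Levels were ordered per kilobase of annotated exon, since the genes differ in length. The gluconeogenic enzymes stood at the top and the adaptors and PGC-1α at the bottom. Fbp1 had a median of 431 CPM per kb over the 24 mice and Pck1 396 CPM per kb, and Fbp1 was above Pck1 in 17 of 24 mice. G6pc followed with a median of 135 CPM per kb and Pklr with 56.2 CPM per kb, each below its upper neighbour in 23 of 24 mice. Insr stood at 10.1 CPM per kb, below Pklr in 23 of 24 mice, and Foxo1 at 3.76 CPM per kb, below Insr in all 24. Irs2 (1.78 CPM per kb), Ppargc1a (1.11) and Irs1 (0.841) were lowest. Ppargc1a was above Irs1 in 14 of 24 mice, so that the order of these 2 was not resolved by the spread between mice. Low levels limit the precision: Irs1 had between 16 and 345 counts per mouse and Ppargc1a between 24 and 189, whereas Pck1 had at least 5282.

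**Figure D1:**
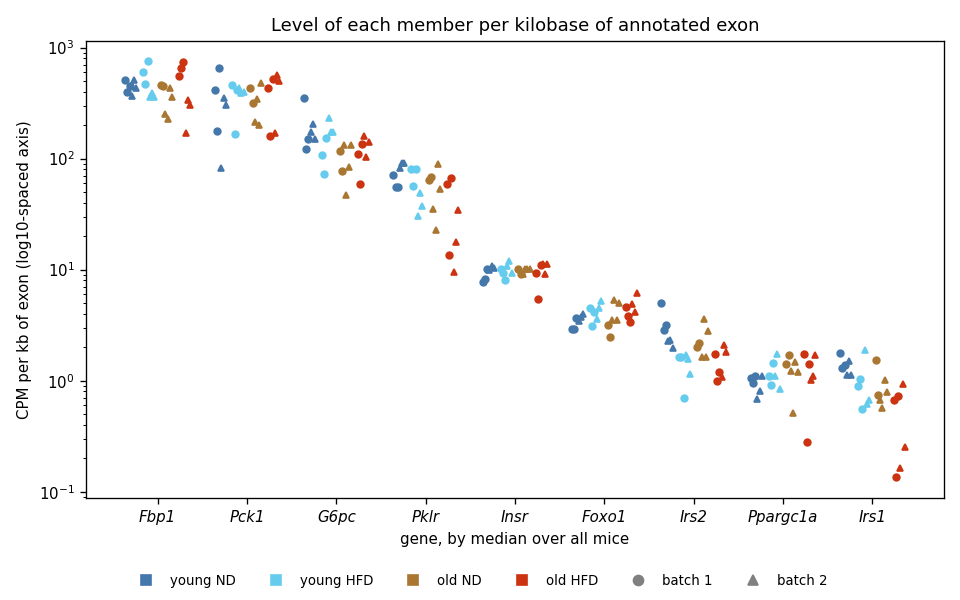
Level of each of the 9 genes per kilobase of annotated exon (CPM per kb, log10-spaced axis) in each of the 24 mice, coloured by group and shaped by batch, with genes ordered by their median. Medians fall from 431 CPM per kb for Fbp1 to 0.841 CPM per kb for Irs1, and the lowest Irs1 and Ppargc1a points belong to old HFD mice.

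Differences between groups were tested in edgeR's quasi-likelihood model, fitted to all 24 mice with group and batch, over 13583 genes, with Benjamini-Hochberg adjustment and a call at an adjusted p of 0.05. HFD in young mice gave 1 call among the 9 genes, Irs2 lower, where 3.5% of all genes tested were called. HFD in old mice gave 0 calls with this test, where 3.01% of all genes were called. The smallest adjusted p was 0.152, and 3 of the 9 genes (Pklr, Irs1 and Irs2) had an unadjusted p under 0.05. DESeq2 also called 0 of the 9 in that comparison. Without the filter on low counts 3 were called, Pklr, Irs1 and Irs2 lower, where 1108 of all genes were called in place of 409. Old ND differed from young ND in 1 of the 9 genes, G6pc lower, where 8.5% of all genes were called. Old HFD against young HFD gave 0 calls, where 2.24% of all genes were called, with 1 gene (Irs1) at an unadjusted p under 0.05, a smallest adjusted p of 0.141, and 0 calls by DESeq2. Without the filter on low counts 2 were called, Pklr and Irs1 lower, where 1235 of all genes were called in place of 304. Old HFD against young ND, in which age and diet differ together, gave 4 calls: Foxo1 higher and Pklr, Irs1 and Irs2 lower. In that comparison 30.2% of all genes were called, and 4 of 9 is read against that background. In the same comparison 4 of the 10 hepatocyte markers were lower and 1 higher, and all 10 summed to 101994 to 157071 CPM for young ND and 89097 to 140970 CPM for old HFD. In these bulk samples, fewer cells of a type and less RNA per cell cannot be told apart. The test of whether the diet difference itself differed between old and young mice called 0 of the 9 and 0% of all genes, with a smallest adjusted p of 0.621 among the 9. None of the 9 had an unadjusted p under 0.05 in that test, DESeq2 called 0 of the 9, and 1247 of all genes had an unadjusted p under 0.05. No member was therefore shown to respond to HFD differently in old and young mice. Young ND entered 3 of the 5 pairwise comparisons and old HFD also 3, so calls in them are not independent. The absolute log2 fold change had a median of 0.33 over the 9 genes for HFD in young mice, against 0.22 over all genes tested. For HFD in old mice it was 0.28 against 0.25, for old against young ND 0.34 against 0.22, for old against young HFD 0.094 against 0.25, and for old HFD against young ND 0.37 against 0.36.

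**Figure D2:**
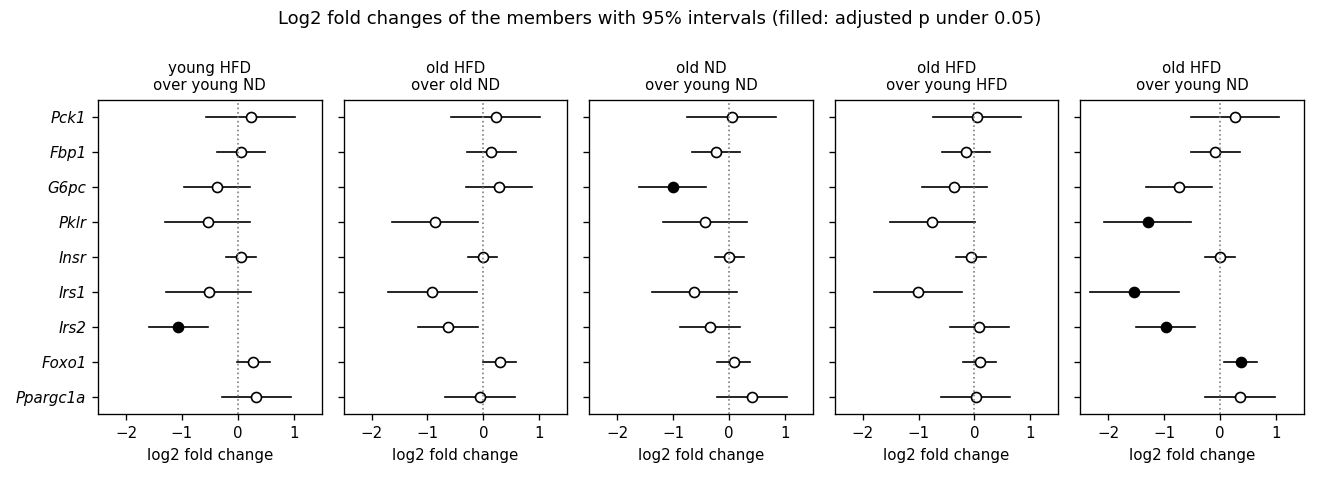
Log2 fold change of each of the 9 genes (rows) in the 5 pairwise comparisons (panels), first-named group over second, from edgeR's quasi-likelihood model. Points are estimates and bars 95% intervals, and filled points have an adjusted p under 0.05. Filled points are Irs2 in the first panel, G6pc in the third and Pklr, Irs1, Irs2 and Foxo1 in the last, while Insr lies close to 0 in all 5.

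The gluconeogenic enzymes are described first. Pck1 (ENSMUSG00000027513, chr2:173153048-173159273 of GRCm38, plus strand) encodes cytosolic PEPCK, which turns oxaloacetate into phosphoenolpyruvate and is induced by glucagon and glucocorticoids. Its lowest, median and highest levels were 279.6, 1124 and 2224 CPM for young ND, 568, 1407 and 1586 for young HFD, 692, 1128 and 1656 for old ND, and 553, 1602 and 1932 for old HFD. All 4 groups overlapped, and within young ND the highest mouse was 7.96 times the lowest. Its mean was 1130.4 ± 678 CPM (SD, n = 6) for young ND and 1300.4 ± 369 for young HFD, a log2 fold change of 0.23 with a 95% interval from -0.56 to 1.02 (edgeR quasi-likelihood adjusted p = 0.800). In the other 4 comparisons the log2 fold change lay between 0.04 and 0.27 and was not called. Over the 5 comparisons the 95% intervals reached from -0.75 to 1.06, so that changes within that range were not resolved for Pck1.

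Fbp1 (ENSMUSG00000069805, chr13:62864753-62888282, minus strand), the liver fructose-1,6-bisphosphatase, had 628, 744 and 867 CPM for young ND and 606, 731 and 1277 for young HFD (lowest, median, highest). It had 386, 677 and 786 CPM for old ND and 292, 754 and 1267 for old HFD. The 4 medians lay between 677 and 754 CPM and the ranges overlapped, while the spread differed: the CV was 12.8% for young ND, 32.4% for young HFD, 28.4% for old ND and 48.8% for old HFD. On HFD the batches separated: the 3 batch 1 mice of old HFD had 939 to 1267 CPM and the 3 batch 2 mice 292 to 568 CPM. Its log2 fold change for HFD was 0.07 in young mice (95% interval -0.36 to 0.49) and 0.14 in old mice (-0.29 to 0.58). It was 0.42 in batch 1 and -0.21 in batch 2 in young mice, and 0.46 and -0.23 in old mice, so the sign differed between batches in both. Across mice, after batch means were removed as in all correlations here, log2 CPM of Fbp1 and the mitochondrial share of counts had a Pearson r of -0.65 (n = 24, both from the same libraries), a description with no test.

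G6pc (ENSMUSG00000078650, chr11:101367561-101377903, plus strand) encodes the catalytic subunit of glucose-6-phosphatase, the last step before glucose leaves the hepatocyte. It was lower in old than in young mice on ND in the model of all mice, a call that several alternatives did not keep. From lowest over median to highest, levels were 297, 391 and 840.4 CPM for young ND and 113, 244 and 323 for old ND. They were 174, 396 and 562 CPM for young HFD and 144, 296 and 383 for old HFD. Old ND lay mostly under young ND, with an overlap only of young ND replicate 2 with old ND replicates 3 and 6. The mean was 463 ± 196 CPM (SD, n = 6) for young ND and 239 ± 84.4 for old ND, a log2 fold change of -1.01 (SE 0.29, edgeR quasi-likelihood adjusted p = 0.0311), or 49.7% of the young level. It was -1.07 in batch 1 and -0.83 in batch 2. The call was lost in fits without young ND replicate 1 (-0.71, adjusted p = 0.0995), young ND replicate 5 (-1.02, 0.0562), old ND replicate 2 (-0.96, 0.0789) or old ND replicate 4 (-0.85, 0.0818), all by edgeR's quasi-likelihood test. Without old ND replicate 4 and old HFD replicate 2 together it was -0.84 (adjusted p = 0.0547). It was also not called when only the 2 groups were fitted (-0.90, edgeR adjusted p = 0.0645), with no batch term (-0.96, 0.0609), or by limma on log2(FPKM + 1) (-0.99, 0.0721) or log2(FPKM + 0.1) (-1.02, 0.0570). Summed over 12 immediate early genes such as Fos and Jun, which respond quickly to stress, old ND had 423 to 1263 CPM and young ND 242 to 531 CPM. Of the 12, 8 were called higher, where 8.5% of all genes were called. G6pc and that sum had a Pearson r of -0.61 over the 24 mice and -0.33 within groups. The r was -0.49 with summed immune cell markers, 0.45 with hepatocyte markers and 0.53 with the log2 total count. Within groups these were -0.14, 0.47 and 0.41. In old over young ND 10 of 12 tested immune cell markers were also called higher, and 0 of 10 hepatocyte markers were called. The part of these measures in the G6pc difference was not tested. On HFD the age difference of G6pc was smaller and not called, at -0.36 (95% interval -0.94 to 0.23). For old HFD over young ND it was -0.73 (edgeR quasi-likelihood adjusted p = 0.0559), and it passed with DESeq2 (-0.68, adjusted p = 0.0452). The interaction for G6pc was 0.65 (95% interval -0.19 to 1.49, edgeR quasi-likelihood adjusted p = 0.621), so the age differences on the 2 diets were not shown to differ.

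**Figure D3:**
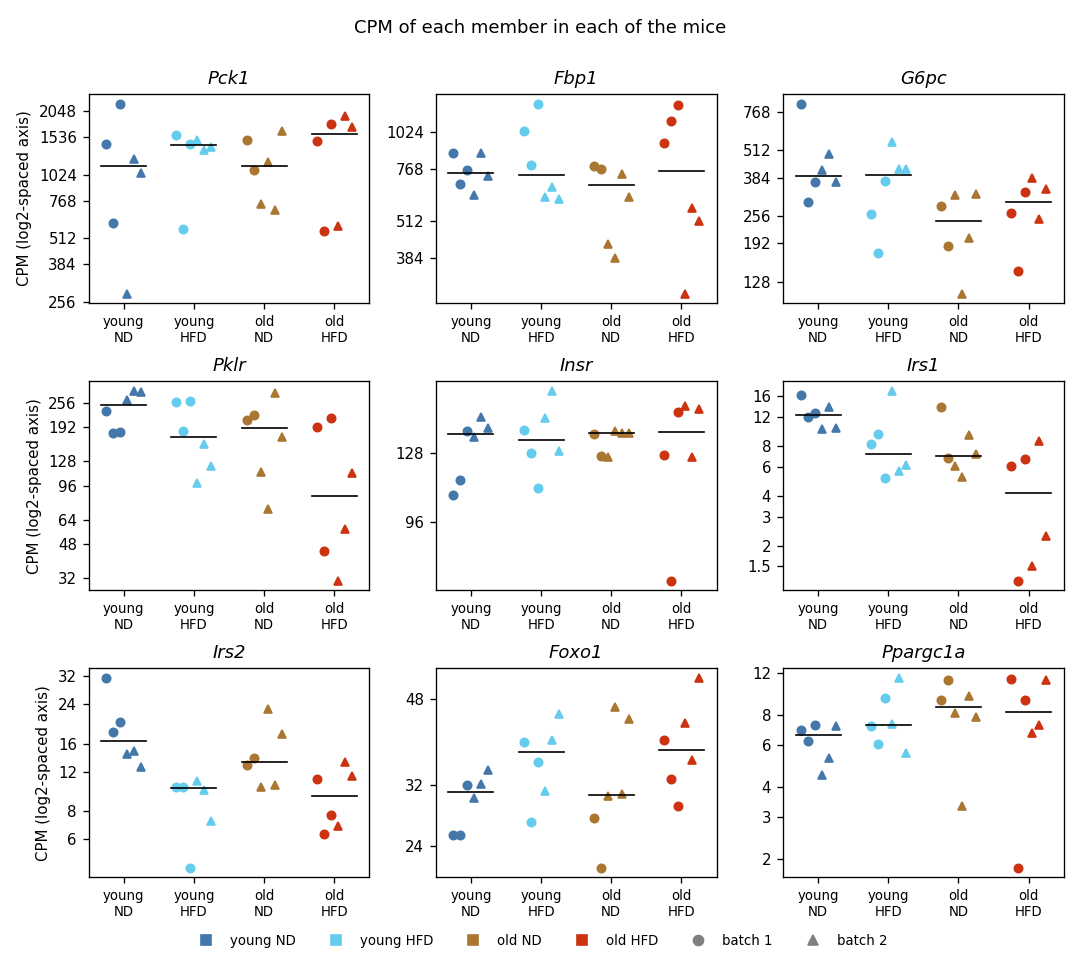
CPM of each of the 9 genes in every mouse by group (log2-spaced axes, a separate range in each panel), circles for batch 1 and triangles for batch 2, with a line at the group median. Irs2 for young HFD lies wholly under young ND, Irs1 for old HFD lies wholly under young ND, and single old HFD mice lie far under their group for Insr and Ppargc1a.

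Pklr (ENSMUSG00000041237, chr3:89136142-89146784, plus strand) encodes the liver pyruvate kinase of glycolysis, whose transcription is known to follow glucose and insulin. It was lowest and most variable in old HFD. Levels (lowest, median, highest) were 179, 249 and 296 CPM for young ND and 99.3, 170.1 and 261 for young HFD. They were 73.1, 190.0 and 289 CPM for old ND and 31.1, 84.7 and 214 for old HFD. Old HFD overlapped young ND through replicates 1 and 3, at 193 and 214 CPM, while its other 4 mice had 112 CPM or less. The mean was 241 ± 52.5 CPM (SD, n = 6) for young ND and 109 ± 78.9 for old HFD, a log2 fold change of -1.29 (SE 0.38, edgeR quasi-likelihood adjusted p = 0.0136), or 40.9% of the young ND level. The difference was -0.41 in batch 1, where it was not called, and -2.09 in batch 2, and it lost the call when only these 2 groups were fitted (-1.20, edgeR quasi-likelihood adjusted p = 0.0608). Without both libraries that stood apart it was -1.09 (adjusted p = 0.0204). Across the 24 mice Pklr had a Pearson r of 0.59 with the summed hepatocyte markers, -0.53 with the immediate early genes, -0.46 with the mitochondrial share and 0.50 with the summed clock genes, or 0.50, -0.49, -0.38 and 0.77 within groups. In old HFD over young ND 7 of 12 immediate early genes were called higher, where 30.2% of all genes were called. Their sums were 256 to 1179 CPM for old HFD and 242 to 531 CPM for young ND, and the part of these measures in the Pklr difference was not tested. HFD alone gave -0.54 in young mice (95% interval -1.30 to 0.22) and -0.87 in old mice (-1.64 to -0.09, adjusted p = 0.176), with neither called by edgeR's quasi-likelihood test. Both were called without the filter on low counts. Exons of Pklr overlap those of Hcn3 on the opposite strand, which had at most 703 counts in a mouse. Since use of strand in the counting is not stated, reads of Hcn3 and Pklr may not be separated and Pklr values are uncertain.

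Insr (ENSMUSG00000005534, chr8:3122061-3279617, minus strand), the insulin receptor, had nearly the same median in all 4 groups. Its lowest, median and highest levels were 107, 138 and 148 CPM for young ND, 110.5, 135 and 166 for young HFD, 126, 139 and 140.0 for old ND, and 75.1, 139 and 155 for old HFD. The 4 medians lay between 135 and 139 CPM, and old HFD replicate 2 was the only mouse under 100 CPM. Its log2 fold changes in the 5 pairwise comparisons lay between -0.06 and 0.06, with none called. Over the 5 comparisons the intervals reached no lower than -0.33 and no higher than 0.32, so larger changes of Insr lay outside all of them.

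Irs1 (ENSMUSG00000055980, chr1:82233101-82291416, minus strand), an adaptor that carries the signal of the receptor to PI3K, was lowest in old HFD. Its lowest, median and highest levels were 10.2, 12.3 and 16.3 CPM for young ND and 5.13, 7.19 and 17.3 for young HFD. They were 5.23, 6.96 and 13.9 CPM for old ND and 1.23, 4.19 and 8.59 for old HFD. Every old HFD mouse was under every young ND mouse, and the 2 groups between them overlapped both. The mean was 12.6 ± 2.30 CPM (SD, n = 6) for young ND and 4.40 ± 3.11 for old HFD, a log2 fold change of -1.53 (SE 0.39, edgeR quasi-likelihood adjusted p = 0.00567), or 34.6% of the young ND level. It was -1.57 in batch 1 and -1.50 in batch 2, and not called in either alone (edgeR quasi-likelihood adjusted p = 0.0764 and 0.103). Without both libraries that stood apart it was -1.30 (edgeR quasi-likelihood adjusted p = 0.00967). Each step alone was negative and not called: HFD in young mice -0.52 (95% interval -1.28 to 0.24), HFD in old mice -0.91 (-1.71 to -0.11), old over young ND -0.62 (-1.38 to 0.14) and old over young HFD -1.01 (-1.80 to -0.22). The last was called without old HFD replicate 5 (-1.39, edgeR quasi-likelihood adjusted p = 0.0365) and was -0.64 without young HFD replicate 4. Without the filter on low counts, each of these steps but HFD in young mice was called. The 3 lowest mice, old HFD replicates 2, 4 and 6 at 1.23, 1.50 and 2.30 CPM, were those with the lowest (4.26%) and the 2 highest (21.8% and 19.1%) mitochondrial shares of their group. Irs1 also had a Pearson r of -0.60 with the summed CPM of 16 immune cell markers (n = 24), and -0.35 within groups. That sum was 4.16 to 79.3 CPM for young ND and 91.1 to 666 CPM for old HFD. Of these markers 11 of 12 tested were called higher, where 30.2% of all genes were called. With the summed CPM of 5 erythroid genes the r was 0.81, and 0.60 within groups. That sum was 102.6 to 146.3 CPM for young ND and 47.9 to 94.3 CPM for old HFD, and most of it was Alas2, the erythroid heme synthesis enzyme, at a mean of 125 and 59.3 CPM, whereas the globins Hba-a1 and Hbb-bs, at 2.27 CPM or less on average, were called higher. Irs1 has 9.14 kb of annotated exon, and the level of long genes relative to short ones was also lower in old HFD, with 5 of 6 mice under every young ND mouse. The part of these differences in the Irs1 values was not tested.

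Irs2 (ENSMUSG00000038894, chr8:10984681-11008458, minus strand), the second hepatic adaptor, whose transcription FOXO1 is known to raise in fasting, was lower on HFD in young mice. The lowest, median and highest levels were 12.6, 16.4 and 31.4 CPM for young ND and 4.46, 10.1 and 10.9 for young HFD. They were 10.3, 13.3 and 22.8 CPM for old ND and 6.30, 9.36 and 13.2 for old HFD. The young groups did not overlap, and old HFD overlapped young ND only through its replicate 5. The mean was 18.5 ± 6.85 CPM (SD, n = 6) for young ND and 8.84 ± 2.50 for young HFD, a log2 fold change of -1.06 (SE 0.26, edgeR quasi-likelihood adjusted p = 0.0251), or 47.9%. It was -1.46 in batch 1 and -0.55 in batch 2, and not called in either alone (edgeR quasi-likelihood adjusted p = 0.0714 and 0.677), nor by limma on log2(FPKM + 1), where it was -0.34 (adjusted p = 0.0532). The call was also lost, with adjusted p from 0.0504 to 0.0772 by edgeR's quasi-likelihood test, when young ND replicate 1, 2 or 3 or young HFD replicate 3, 5 or 6 was left out. Over all fits that left out 1 mouse the log2 fold change stayed between -1.15 and -0.85. The 16 immune cell markers summed to 4.16 to 79.3 CPM for young ND and 15.8 to 205 CPM for young HFD, with 1 of 12 tested called higher, where 3.5% of all genes were called. They had a Pearson r of -0.42 with Irs2 (n = 24), or -0.18 within groups. Their part in the Irs2 difference was not tested. In old HFD over young ND it was -0.97 (SE 0.26, edgeR quasi-likelihood adjusted p = 0.00781), and -1.49 in batch 1. In batch 2 it was -0.40 and not called (edgeR quasi-likelihood adjusted p = 0.384). HFD in old mice gave -0.64 (95% interval -1.17 to -0.10, adjusted p = 0.152 by the same edgeR test), and the interaction was 0.43 (-0.33 to 1.18). The difference in old mice was called without the filter on low counts (-0.65, edgeR quasi-likelihood adjusted p = 0.0219). Old ND and young ND did not pass the test (-0.34, 95% interval -0.87 to 0.19), nor did the 2 HFD groups (0.09, -0.44 to 0.62).

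Foxo1 (ENSMUSG00000044167, chr3:52268336-52353221, plus strand) encodes the insulin-restrained transcription factor of gluconeogenic genes, which is controlled largely after transcription. Its lowest, median and highest levels were 25.2, 31.0 and 34.4 CPM for young ND and 26.8, 37.4 and 44.8 for young HFD. They were 21.6, 30.5 and 46.2 CPM for old ND and 29.0, 37.8 and 53.1 for old HFD. Both HFD medians were above both ND medians, and all groups overlapped. The mean was 29.9 ± 3.81 CPM (SD, n = 6) for young ND and 38.9 ± 8.49 for old HFD, a log2 fold change of 0.37 (SE 0.14, edgeR quasi-likelihood adjusted p = 0.0495), or 1.30-fold. The call was at the threshold, and was lost with no batch term (0.38, edgeR quasi-likelihood adjusted p = 0.105) or no count filter (0.33, 0.165). It was lost in 15 of 24 fits that left out 1 mouse: young ND replicate 1, 2, 4, 5 or 6, young HFD replicate 2, 3 or 6, old ND replicate 1, 3 or 5, or old HFD replicate 1, 2, 4 or 6. In those 24 fits the log2 fold change was 0.30 to 0.46 and the adjusted p 0.0191 to 0.129 (edgeR's quasi-likelihood test). HFD gave 0.28 in young mice (95% interval -0.01 to 0.57) and 0.29 in old mice (-0.01 to 0.59), with neither called. Foxo1 moved against Irs1 across mice (Pearson r = -0.55, n = 24), and with the summed CPM of 8 endothelial markers (r = 0.64, n = 24). That sum was 13.3 to 128 CPM for young ND and 26.2 to 530.1 CPM for old HFD. Of these markers 8 of 8 were called higher, where 30.2% of all genes were called, and their part in the Foxo1 difference was not tested.

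Ppargc1a (ENSMUSG00000029167, chr5:51454250-51567726, minus strand) encodes PGC-1α, a coactivator induced by fasting and glucagon. It was low in all groups, with 4.50, 6.60 and 7.29 CPM for young ND, 5.58, 7.28 and 11.5 for young HFD, 3.35, 8.70 and 11.2 for old ND, and 1.84, 8.28 and 11.4 for old HFD (lowest, median, highest). All groups overlapped, and the lowest mice were old HFD replicate 2 and old ND replicate 4, the libraries that stood apart. No comparison was called, with log2 fold changes of 0.33 for HFD in young mice (95% interval -0.29 to 0.95), -0.06 for HFD in old mice (-0.68 to 0.56) and 0.41 for old over young ND (-0.21 to 1.04). Old HFD over young ND was 0.35 (95% interval -0.27 to 0.98), and without both libraries, an alternative chosen after their values were seen, it was 0.60 and called (edgeR quasi-likelihood adjusted p = 0.0177).

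**Figure D4:**
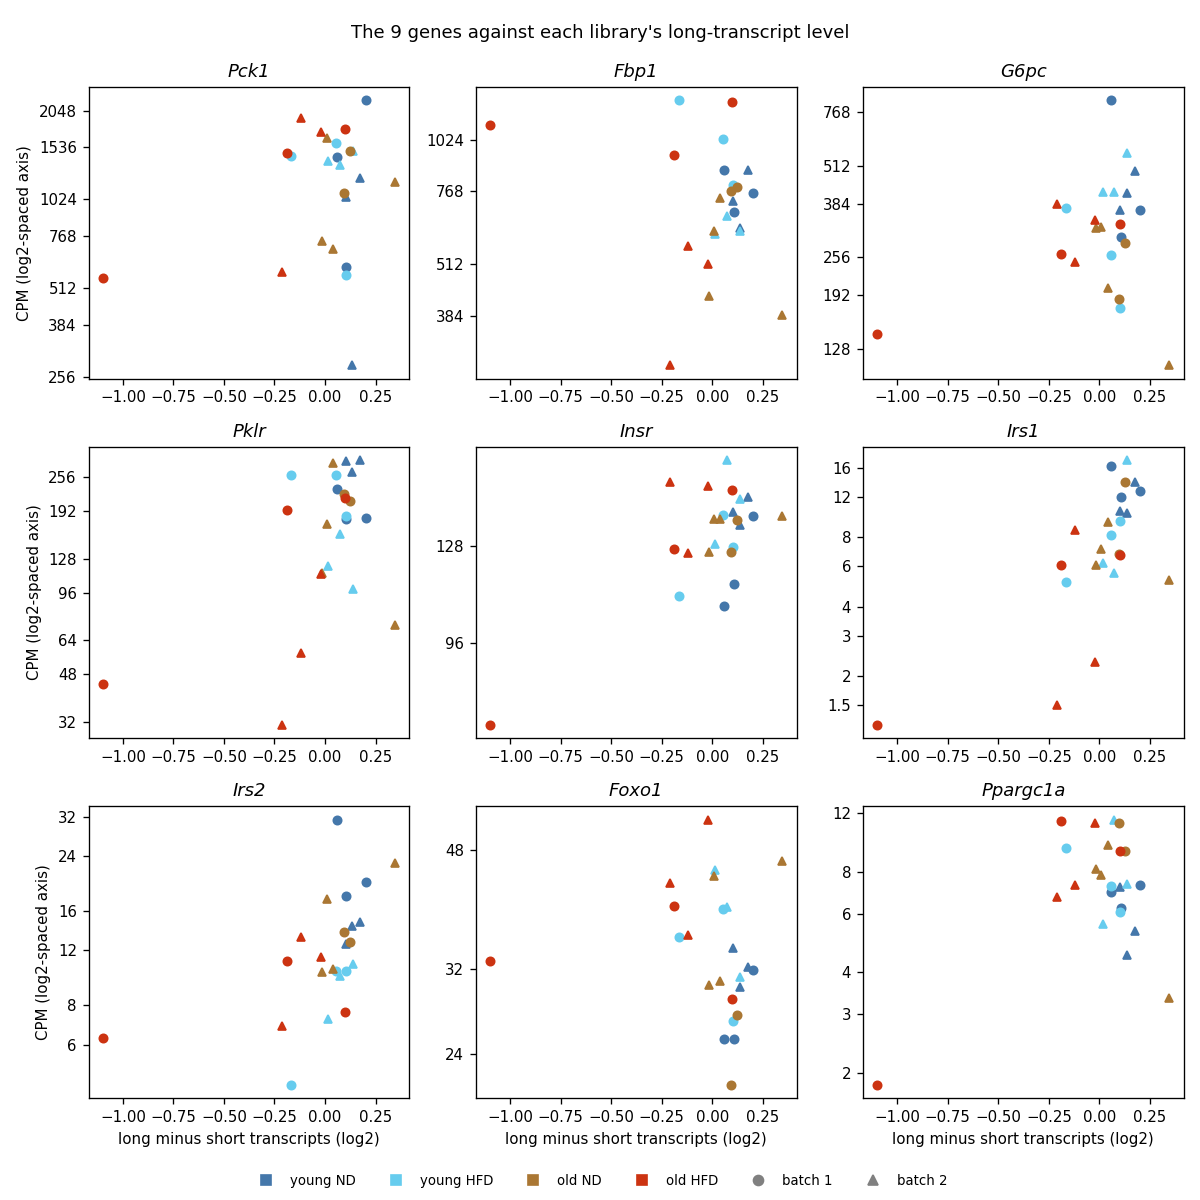
CPM of each of the 9 genes (log2-spaced axes, a separate range in each panel) in each mouse against the median log2 level of genes with at least 8 kb of exon minus that of genes under 2 kb in the same library, each gene taken relative to its mean over mice. Old HFD replicate 2, at -1.10, is the lowest point for Insr, Irs1 and Ppargc1a but not for the other 6 genes, and Foxo1, at 33.0 CPM, lies within the range of the other mice.

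Members that stand on one pathway did not all vary together. Over the 24 mice the highest Pearson correlation was between Pklr and Irs1 (r = 0.66, n = 24), with a Spearman value of 0.37 and an r of 0.38 within groups. Insr and Ppargc1a had 0.65 (Spearman 0.32), in which old HFD replicate 2 was lowest for both. Irs1 and Irs2 had 0.56, whereas Pck1 and G6pc, both gluconeogenic enzymes, had 0.24. Fbp1 and Pklr had 0.56, and were the highest pair by Spearman (0.61) and within groups (0.68). These are descriptions over mice that share libraries and depth, with no test. Among 12089 named genes, those most like Pck1 across the 24 mice were Mbd1 (Pearson r = 0.77), Per1 (0.74) and Slc25a51 (0.73), and those most like G6pc were Cyp2u1 (0.75), Gldc (0.73) and Pbld2 (0.73). Pklr went most with Rmnd5a (0.92), Tkfc (0.91) and Gls2 (0.90), and Insr with Pign (0.86) and Smg1 (0.85). Irs1 went most with Prpf8, Gak and Sec16a (0.94 each), Irs2 with Asap2 (0.83), Nedd4l (0.82) and Grk5 (0.81), and Foxo1 with Mtss1 (0.87), Trim11 (0.83) and St3gal4 (0.82). Each r is the highest of many and is given only to describe the pattern.

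Promoters of the 3 genes whose calls are described most fully, G6pc, Irs1 and Irs2, are shown with that of Pck1, which was not called. They are RefSeq windows of 300 bases on GRCm38.p6, from 250 before to 50 after the annotated start, written along the gene's own strand. Capitals mark matches to CAAAACA or its reverse complement TGTTTTG, the letters of the core of an insulin response element, and to TGACG or CGTCA, part of a cAMP response element. The windows are chr11:101367466-101367765 (plus strand), chr1:82291390-82291689 (minus), chr8:11008880-11009179 (minus) and chr2:173152823-173153122 (plus). The Irs2 window lies around a RefSeq start upstream of the GENCODE gene limits given above.
G6pc: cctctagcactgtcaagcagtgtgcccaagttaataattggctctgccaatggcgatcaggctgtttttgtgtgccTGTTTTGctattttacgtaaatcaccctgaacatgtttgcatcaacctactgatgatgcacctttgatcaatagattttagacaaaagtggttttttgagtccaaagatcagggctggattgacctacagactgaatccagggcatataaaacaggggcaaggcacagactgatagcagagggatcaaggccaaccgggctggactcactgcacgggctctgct
Irs1: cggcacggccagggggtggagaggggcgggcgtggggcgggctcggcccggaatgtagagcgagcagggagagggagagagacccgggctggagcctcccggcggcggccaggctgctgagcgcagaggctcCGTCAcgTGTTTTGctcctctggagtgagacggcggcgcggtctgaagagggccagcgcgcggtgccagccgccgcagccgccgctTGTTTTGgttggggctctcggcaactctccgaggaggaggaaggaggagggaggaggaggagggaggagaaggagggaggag
Irs2: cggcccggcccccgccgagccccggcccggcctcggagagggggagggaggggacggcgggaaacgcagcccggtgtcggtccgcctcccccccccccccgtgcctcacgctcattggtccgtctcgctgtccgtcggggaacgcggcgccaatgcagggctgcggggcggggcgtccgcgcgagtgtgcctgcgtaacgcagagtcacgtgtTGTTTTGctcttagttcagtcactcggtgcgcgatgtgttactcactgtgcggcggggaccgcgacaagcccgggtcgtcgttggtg
Pck1: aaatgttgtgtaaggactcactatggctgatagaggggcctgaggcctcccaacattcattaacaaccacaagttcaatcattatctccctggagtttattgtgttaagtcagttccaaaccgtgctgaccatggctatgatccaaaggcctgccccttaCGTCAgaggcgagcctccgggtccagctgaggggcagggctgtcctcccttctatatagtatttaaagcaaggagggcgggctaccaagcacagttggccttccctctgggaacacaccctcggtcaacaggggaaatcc

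A promoter entry was found for 8 of the 9 genes, with 9 windows, since Pklr had 2. Insr had no entry. CAAAACA, read on both strands, began 174 bases before the start in G6pc, 111 and 32 before it in Irs1, and 37 before it in Irs2. The other members had no match in these windows, where 6.28% of all 32851 windows in the table held one. TGACG was found 90 bases before the start in Pck1, 118 before it in Irs1 and 49 before it in Ppargc1a, in a table where 20.8% of windows held one. Neither the full TGACGTCA, which contains TGACG, nor the forkhead letters GTAAACA were found in any of the 9 windows, and 1.79% and 3.65% of all windows held them. A match describes letters only, and binding was not measured here.

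Beyond the 9 genes, lists of the surrounding pathways were counted with the 9 left out. The insulin receptor signaling list had 52 tested genes. For HFD in young mice 0 were called higher and 5 lower, which was 9.62% of the list against 3.5% of all genes, and the median log2 fold change was -0.11, against 0.01 over all genes. Those lower were Phlpp2, a phosphatase of AKT (-1.13, edgeR quasi-likelihood adjusted p = 0.00608), Igfbp1, an insulin-repressed secreted protein (-1.95, adjusted p = 0.0246), the kinases Prkci (-0.48), Gsk3b (-0.38) and Rps6kb1 (-0.37). Igfbp1 had 24.9 to 110 CPM for young ND and 2.71 to 48.8 CPM for young HFD, with overlap. Phlpp2 had 4.03 to 6.78 CPM for young ND and 1.30 to 3.33 CPM for young HFD, without overlap. With another scaling (RLE in place of TMM), 2 genes of this list were called for HFD in young mice. Of all genes, 465 were called with RLE and 475 with TMM, so the excess of this list depended on the scaling. HFD in old mice gave 0 higher and 3 lower, 5.77% against 3.01% of all genes: Phlpp2 (-0.98), Tsc2, a brake on mTORC1 (-0.67), and Socs3, an inhibitor of receptor and cytokine signaling (-1.79, edgeR quasi-likelihood adjusted p = 0.0396). Socs3 had 8.58 to 126 CPM for old ND and 5.56 to 14.5 CPM for old HFD. Without both libraries that stood apart Socs3 was -0.88 (edgeR quasi-likelihood adjusted p = 0.227) and Phlpp2 -0.83 (0.0572), and neither was called.

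In old ND over young ND, 4 genes of this list were higher (Pik3cd, Inpp5d, Enpp1 and Socs3) and 1 lower (Gsk3b), 9.62% and near the 8.5% of all genes. Socs3 was 1.86, and without both libraries that stood apart 0.97 and not called (edgeR quasi-likelihood adjusted p = 0.128). Pik3cd (3.66) and Inpp5d (2.84) are known as leukocyte enzymes of phosphoinositide signaling. They had at most 0.90 and 1.22 CPM in young ND mice, so their fold changes are imprecise. Beside these genes, the 16 immune cell markers summed to 64.8 to 1230 CPM for old ND and 4.16 to 79.3 CPM for young ND. Of these markers 10 of 12 tested were called higher, and Cd79a was at 0 in all young ND mice. Enpp1, which can inhibit the insulin receptor, was 29.1 to 35.0 CPM for young ND and 37.2 to 49.6 CPM for old ND without overlap (0.53, edgeR quasi-likelihood adjusted p = 0.00362). Old HFD over young HFD gave 1 call, 1.92% against 2.24% of all genes: Sh2b1, an adaptor of the receptor (-0.67). In old HFD over young ND 6 were higher and 21 lower, 51.9% of the list against 30.2% of all genes, and the median was -0.23 against 0.04. The level of long genes relative to short ones was also lower in old HFD, with 5 of 6 mice under every young ND mouse, or 4 of 5 without replicate 2, and its part in these calls was not tested. Among those lower were Pdpk1 (-0.62), Akt2 (-0.53), Gsk3b (-0.56), Mtor (-0.64) and Phlpp2 (-1.31), so that kinases of the insulin signal and a phosphatase that opposes it were both among them. The counts of this list were 6, 2, 5, 1 and 27 without both libraries that stood apart, for HFD in young and in old mice, old over young ND, old over young HFD, and old HFD over young ND. The first was 11.5% of the list, near the 10.6% of all genes called in that fit.

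**Figure D5:**
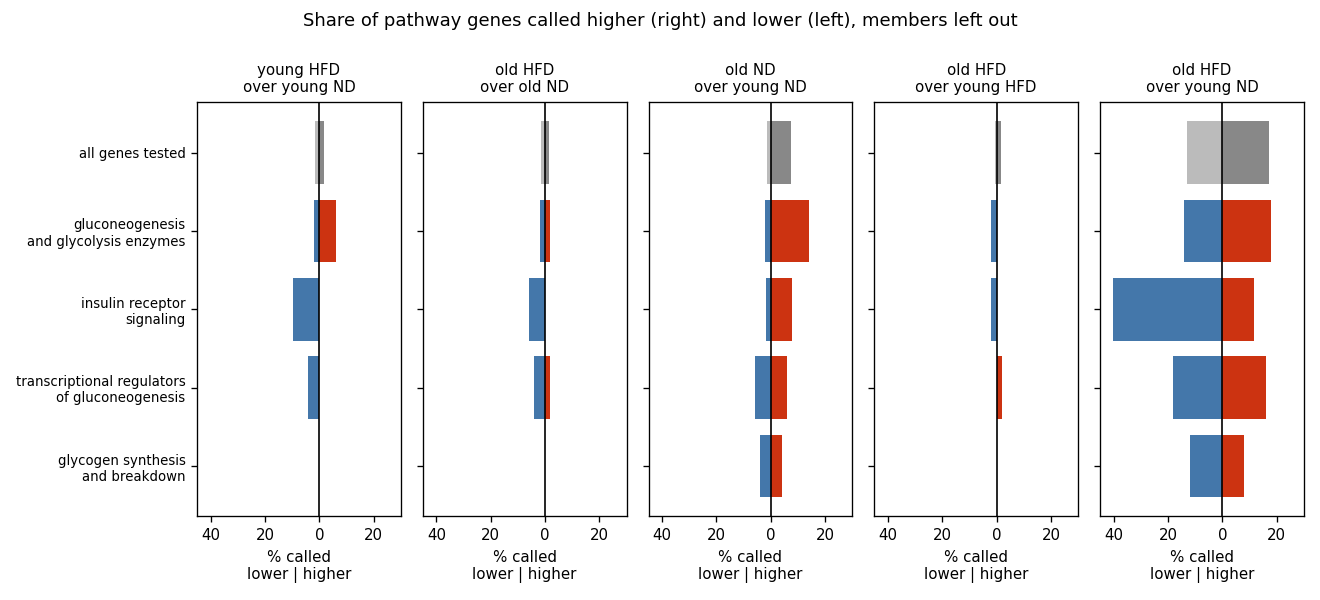
Percent of tested genes called lower (left of 0) and higher (right of 0) in 4 pathway lists with the 9 genes left out, and in grey among all genes tested, for the 5 pairwise comparisons. In old HFD over young ND the insulin receptor signaling list has 21 of 52 genes lower and 6 higher, and in the diet comparisons within an age each list has at most 5 calls.

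Of 50 other tested enzymes of gluconeogenesis and glycolysis, 3 were higher and 1 lower for HFD in young mice, and 1 was higher and 1 lower for HFD in old mice. These were 8% and 4% of the list, against 3.5% and 3.01% of all genes. The first were G6pc3, the widely expressed glucose-6-phosphatase (0.92, edgeR quasi-likelihood adjusted p = 0.00702), Gckr (0.40), Hk2 (3.48) and Dlat, a pyruvate dehydrogenase subunit, lower (-0.42). In old mice Gpt, an alanine aminotransferase, was higher (0.57) and Dlat lower (-0.44). G6pc3 had 1.88 to 4.76 CPM for young ND and 3.56 to 8.30 CPM for young HFD, far under G6pc. In old ND over young ND 7 were higher and 1 lower, 16% against 8.5% of all genes. Those higher were G6pc3 (0.69) and 6 that are known mainly from cells other than resting hepatocytes, such as Hk2 (3.89), Hk3 (3.38), Hk1 (1.83) and Pkm (2.51), beside the immune markers given above, whose part was not tested. Hk2 was at or under 0.321 CPM in every young ND mouse, Hk3 at or under 1.18 and Hk1 at or under 1.93, so their fold changes are imprecise. Gpd1, the cytosolic glycerol-3-phosphate dehydrogenase, was lower in old ND (-0.62) and in old HFD over young HFD (-0.73, edgeR quasi-likelihood adjusted p = 0.0414), the only call of that comparison in this list (2% against 2.24% of all genes). In old HFD over young ND 9 were higher and 7 lower, 32.0% of the list and near the 30.2% of all genes, with Gpd1 (-0.88), the glycolytic enzymes Pgam1 (-0.92), Pgk1 (-0.62) and Eno1 (-0.55), and Pdk4, a pyruvate dehydrogenase kinase (-1.29), among those lower. The glucose transporter Slc2a2 was not called in any comparison. Without both libraries that stood apart the list had 9, 3, 7, 2 and 17 calls in the same order of comparisons, so that for HFD in young mice the count rose from 4 to 9 while the share of all genes rose from 3.5% to 10.6%, and Gpd1 in old over young ND (-0.49, edgeR quasi-likelihood adjusted p = 0.0747) and Eno1 in old HFD over young ND (-0.47, 0.0767) were not called.

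Among 50 other tested transcriptional regulators of gluconeogenesis, HFD in young mice gave 2 calls, 4% and near the 3.5% of all genes, both lower: Cry1, a clock repressor that also restrains glucagon signaling (-1.30, edgeR quasi-likelihood adjusted p = 0.0201), and Adra1b, an adrenergic receptor (-0.62). HFD in old mice gave 3 calls, 6% against 3.01% of all genes, with Creb3l3 higher (0.50) and Stat3 (-0.56) and Adra1b (-0.78) lower. Creb3l3, a hepatocyte transcription factor induced by fasting, had 146 to 245 CPM for old ND and 213 to 327 CPM for old HFD. In old ND over young ND 3 were higher, among them Stat3 and Hes1, and 3 lower (Cry1, Creb3l3 and Prkar2a), 12% against 8.5% of all genes. Cry1 had 8.72 to 32.8 CPM for young ND and 3.86 to 12.6 CPM for old ND, with overlap (-1.32). Of 16 circadian clock genes, 4 were called lower for HFD in young mice, 1 lower in old ND over young ND, and 3 higher and 5 lower in old HFD over young ND, where 3.5%, 8.5% and 30.2% of all genes were called. The median log2 fold change of the 16 was 0.53 for HFD in young mice, opposite in sign to the 4 calls, and collection times are not in the labels. Old HFD over young HFD gave 1 call, Crebbp higher (0.77), or 2% against 2.24% of all genes, and old HFD over young ND 8 higher and 9 lower, 34.0% of the list and near the 30.2% of all genes, among them Hnf4a, a hepatocyte identity factor (-0.73), Foxa1 (-0.99) and Cry1 (-1.92) lower and Ppargc1b (1.29) and Cebpb (0.81) higher. Without both libraries that stood apart the list had 6, 2, 5, 0 and 14 calls, of which the first was 12% against 10.6% of all genes. Those no longer called included Stat3 for HFD in old mice (-0.35, edgeR quasi-likelihood adjusted p = 0.137), Creb3l3 in old over young ND (-0.32, 0.0830) and Crebbp (0.63, 0.0848). The glycogen list, with 25 tested genes, had 0 calls for HFD at either age by edgeR's quasi-likelihood test, with 6 genes at an unadjusted p under 0.05 at the young age and 1 at the old age, and with 1 and 0 calls by DESeq2. In old ND over young ND, Ppp1r3b, the hepatic glycogen-targeting subunit of protein phosphatase 1, was lower without overlap, at 212 to 276 CPM against 283 to 511 CPM (-0.66, edgeR quasi-likelihood adjusted p = 0.0139), and Pygb was higher (1.54). These 2 calls were 8% of the list, near the 8.5% of all genes, and Pygb was 1.18 and not called without both libraries that stood apart (edgeR quasi-likelihood adjusted p = 0.0629). Old HFD over young ND gave 2 higher and 3 lower, 20% against 30.2% of all genes. Without both libraries that stood apart it gave 7 calls, 28% of the glycogen list and near the 30.2% of all genes. Leaving out 1 mouse gave 2 to 6 calls.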

How the data were processed

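PolyA RNA of isolated hepatocytes was sequenced in 24 mice, and groups, replicate numbers and batches were taken from the sample labels. Each library is labelled as 1 replicate of its group, and p-values measure the spread between these samples.

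The authors aligned reads to mm10 (STAR 2.7.3a, 2-pass) and deposited whole-number counts per gene made with HTSeq 0.11.2, without normalization. They also deposited FPKM values from CuffLinks, adjusted between batches. Over 8994 genes the ratio of FPKM to counts followed the genomic span with introns (Pearson r = 0.998 on log2 values across genes) more than the exonic length (0.667), so FPKM ordered no genes here, and CPM per kilobase of exon was used in place of the planned FPKM. Strand use in counting is not stated. Reads carried no molecular identifiers and include PCR copies, and the true error exceeds counting error. Total counts of 9200332 to 22185069 set the precision for low genes.

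Counts were tested with edgeR 4.0.16 (R 4.3.3): TMM, filterByExpr by group with a minimum count of 10, 1 model of 24 mice with group and batch, quasi-likelihood F tests and Benjamini-Hochberg adjustment over 13583 genes. The test was checked on simulated data. The 95% intervals of fold changes use t quantiles with the test's degrees of freedom and are not adjusted for the number of genes. CPM are TMM-scaled, and log2 CPM used a prior count of 2. The 9 genes, the pathway and marker lists and the tests were chosen with earlier results of these data known. All 9 genes are named. Of each list, named genes came from the 3 with the smallest adjusted p per comparison among those called. The exceptions, chosen after their values were seen, are Akt2, Cebpb, Eno1, Foxa1, Hk3, Hnf4a, Mtor, Pdk4, Pgam1, Pgk1, Ppargc1b, Rps6kb1 and Slc2a2. The 3 genes most like a member had the highest Pearson r of log2 CPM with batch means removed. Some genes are not reported here. Same-numbered mice of different groups are different mice. Gene positions and exon lengths are from GENCODE vM21 (GRCm38), a nearby release of the annotation the authors used, and promoters from RefSeq.

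Alternatives were DESeq2 1.42.0, RLE scaling, no count filter, only the groups compared, no batch term, the replicate number as block, limma 3.58.1 on log2(FPKM + 1) or log2(FPKM + 0.1), each batch alone, each mouse left out and, chosen after seeing the data, old ND replicate 4 and old HFD replicate 2 left out together. Of the 13583 tested genes the FPKM table held 13195. Python 3.11.15 and matplotlib 3.10.9 drew the figures.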

Additional observations from a re-analysis of the deposited data

Results flagged for a closer look

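A mouse was marked where its gap to the nearest mouse of its group took a larger share of the group's range than Dixon's 95% critical value for 6 mice. Chance marks about 1 group in 20, and 4 of 36 groups were marked. Pck1 had 568 CPM in young HFD replicate 2, where the other 5 mice of that group had 1340 CPM or more. Insr had 75.1 CPM in old HFD replicate 2, under a group median of 139 CPM. Ppargc1a had 1.84 CPM in the same mouse, under a group median of 8.28 CPM, and 3.35 CPM in old ND replicate 4, under a group median of 8.70 CPM. Old HFD replicate 2 had the lowest level of genes with long transcripts relative to short ones, and old ND replicate 4 the highest mitochondrial share of all mice. The part of these library differences in the 3 values was not tested.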

How the results depend on the processing

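Among the 9 genes, the number called for HFD in young mice, HFD in old mice, old over young ND, old over young HFD, old HFD over young ND and the interaction was 1, 0, 1, 0, 4 and 0. DESeq2 gave 1, 0, 1, 0, 5 and 0, and RLE scaling the same counts as TMM. With no count filter the first 4 numbers were 2, 3, 2 and 2, and the cause was not tested. Old over young ND had 0 calls when only the groups compared were fitted, with no batch term, with limma on log2(FPKM + 1) or log2(FPKM + 0.1), in either batch alone, and without old ND replicate 4 and old HFD replicate 2 together. HFD in young mice had 0 calls with limma on log2(FPKM + 1) and in either batch alone, which hold fewer mice. Old HFD over young ND had 1 call in either batch alone and 3 with only the groups compared, where Pklr lost its call. With no batch term Foxo1 lost its call in that comparison. Leaving out 1 mouse gave 0 to 1 calls for HFD in young mice, for old over young ND and for old over young HFD, 3 to 5 for old HFD over young ND, and 0 for HFD in old mice and the interaction. Same-numbered mice are different mice, and their deviations had a mean correlation of 0.193 (over 0.1 in 26 of 36 pairs), or -0.054 with batch means removed. With the replicate block fitted instead of batch, the counts were 1, 0, 1, 0, 5 and 0, the added call being G6pc in old HFD over young ND (-0.72, edgeR quasi-likelihood adjusted p = 0.0490). Over all genes the numbers in the same order were 475, 409, 1155, 304, 4100 and 0. DESeq2 gave 1255, 1137, 1676, 859, 4675 and 4, and no count filter 1473, 1108, 2053, 1235, 4623 and 587. Fitting only the groups compared gave 2302, 15, 1331, 48 and 2094, the block 283, 445, 1350, 131, 3478 and 1, and batches 1 and 2 alone 130 and 9 for HFD at the young age, 15 and 16 at the old age, and 919 and 617 for old HFD over young ND. The first 4 numbers were 174, 266, 628 and 116 with no batch term, and limma on log2(FPKM + 1) gave 301, 419, 252 and 180. Without old ND replicate 4 and old HFD replicate 2 together the numbers were 1453, 357, 832, 200, 4128 and 0. Leaving out 1 mouse gave 146 to 998 genes for HFD in young mice, 84 to 823 in old mice, 586 to 1592 for old over young ND, 40 to 813 for old over young HFD and 3314 to 4722 for old HFD over young ND. The insulin receptor signaling list, with 5, 3, 5, 1 and 27 calls, had 7, 8, 8, 4 and 29 by DESeq2, 11, 0, 8, 0 and 17 with only the groups compared, and 1, 2, 5, 0 and 25 with the block. With RLE scaling it had 2, 3, 4, 2 and 26. Leaving out 1 mouse gave it 1 to 5, 0 to 8, 3 to 7, 0 to 6 and 22 to 29. The enzyme list, with 4, 2, 8, 1 and 16 calls, had 8, 4, 9, 4 and 20 by DESeq2 and 16 and 0 for HFD in young and old mice with only the groups compared, and 2 to 5, 0 to 3, 4 to 9, 0 to 4 and 11 to 19 without 1 mouse. The regulator list, with 2, 3, 6, 1 and 17 calls, had 4, 4, 6, 5 and 17 by DESeq2 and 9 and 0 for HFD with only the groups compared, and 0 to 5, 1 to 6, 3 to 6, 0 to 5 and 11 to 18 without 1 mouse. With no count filter these 2 lists each had 8 and 6 calls for HFD in young and old mice. Of 1881 values of the 9 genes under alternatives, 134 had another sign, 0 of them called either way, 44 lost a call and 16 gained one.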
